A study of Mus musculus with 26 samples.

Results

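The effect of deleting the Tdpoz super-enhancer in cells induced to make DUX was described from 4 of the 26 RNA-seq libraries of the series, 2 from Tdpoz super-enhancer knockout cells (SE KO Dux OE) and 2 from wild-type cells (Dux OE), chosen by their labels. All 4 came from R1, a mouse embryonic stem cell (ESC) line grown with LIF on gelatin, and all 4 received 4 μg/ml doxycycline for 24 h to switch on a Dux transgene. The knockout was made with CRISPR-Cas9, and neither the labels nor the methods say whether it is a single clone. The study calls the paired libraries biological replicates, and no source names separate cultures. The p-values therefore measure the spread between libraries of a group, estimated over all 13 groups of the series in 1 model. Uninduced wild-type ESC libraries (2) served as a reference level. Because no uninduced knockout library was analysed here, an effect of the deletion on DUX-induced RNA and an effect already present before induction cannot be told apart. Differences made by the same deletion in cells treated with 0.53 μM retinoic acid (RA) for 48 h or with 4 nM PlaB, the splicing inhibitor pladienolide B, for 4 days (2 knockout and 2 wild-type libraries each) were set beside them.

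DUX is a homeodomain transcription factor that is made briefly in the mouse 2-cell embryo and switches on genes and retrotransposons of that stage, the 2C programme. When it is overexpressed in ESCs, a fraction of cells takes on this programme. A super-enhancer is a dense cluster of enhancers carrying acetylated histone H3, and the one deleted here lies among the Tdpoz genes, which encode proteins with MATH and BTB/POZ domains related to the ubiquitin ligase adaptor SPOP. The genes described below lie mainly outside a list of 2C genes, of which 78 could be tested.

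The knockout libraries held 39402840 and 32990350 counts, against 15016024 and 16092561 in Dux OE, a 2.33-fold difference in mean depth, and all libraries outside the knockout pair held between 14401452 and 22716564. A count of 3, taken as the detection floor, therefore corresponded to 0.0796 and 0.0982 CPM (counts scaled to the effective library size) in the knockout and to 0.219 and 0.203 CPM in Dux OE. Markers of ESC identity were high in all 4, with a summed level of 12 genes such as Pou5f1, Nanog and Sox2 of 5067 and 5088 CPM in Dux OE and 5869 and 6037 CPM in SE KO Dux OE. The 2 knockout libraries stood apart in another way: 11 genes reached at least 30 counts in both and at most 3 in each of the other 24 libraries, a rule chosen after the values were seen. They were Postn, Igkc, Reg3b, Reg3g, Clec2h, Lypd8 and the alpha-defensins Defa20, Defa21, Defa22, Defa24 and Defa30, most of them textbook genes of intestinal epithelium, Paneth cells or plasma cells. Together they held 1259 and 1331 counts, or 0.00320% and 0.00403% of the reads, against at most 6 in any other library. Likewise 8 Y-linked genes summed to 14 and 17 counts in the knockout libraries and to at most 1 elsewhere. These counts move with the knockout label in every result below, and their part in those results was not tested. In bulk RNA, fewer cells of a type and less RNA per cell cannot be told apart.

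Deletion of the element was accompanied by lower levels of 777 genes and higher levels of 515 genes outside the 2C list at an adjusted p under 0.05 and a change of at least 2-fold (edgeR quasi-likelihood test, Benjamini-Hochberg adjustment over 20953 genes). These counts are 3.72% and 2.47% of the 20875 tested genes outside the list. Within it, 27 of 78 genes were lower and 0 higher, against 3.84% of all tested genes lower and 2.46% higher. Their median log2 fold changes were -1.59 for the lowered and 1.61 for the raised. The make-up differed: 460 of the 777 lowered genes carried clone names of the Gm or Rik kind, against 107 of the 515 raised genes and 5482 of all 20875. In uninduced ESCs, 298 lowered genes were at or under the floor (38.4%, against 14.5% of all tested genes outside the list). By annotated type, 347 of all lowered genes were protein-coding, 154 processed pseudogenes and 85 lincRNAs. These are 2.23%, 10.3% and 10.9% of the tested genes of each type. Of the raised genes 407 were protein-coding, 2.62% of that type. Both counts depended on the replicates kept, and without Dux OE replicate 2 they were 425 lowered and 342 raised genes.

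**Figure D1:**
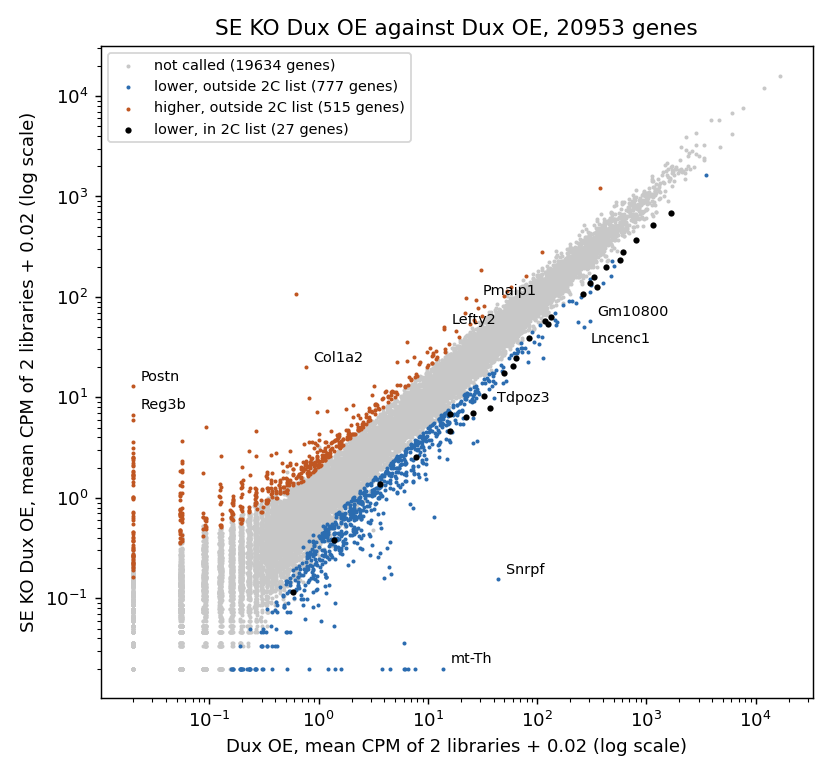
Mean level of each of the 20953 tested genes in Dux OE (x axis) and SE KO Dux OE (y axis), in CPM plus 0.02 on log scales, with genes called lower in blue, higher in orange and lower genes of the 2C list in black. Snrpf and mt-Th lie far below the diagonal and Postn and Reg3b at the left edge, where both Dux OE libraries were at 0.

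Around the deleted element, both Tdpoz3 and Tdpoz4 fell. Tdpoz3, at chr3:93826020-93827117 (mm10), had 35.3 and 38.5 CPM in Dux OE and 8.97 and 6.84 CPM in SE KO Dux OE, a log2 fold change of -2.22 (SE 0.198, adjusted p = 7.58e-09). Tdpoz4, at chr3:93796398-93797510, had 30.8 and 34.4 CPM and fell to 11.7 and 8.93 CPM, by -1.66 (SE 0.22, adjusted p = 4.99e-06). Neither fell to the ESC level, which was 0.498 and 0.3999 CPM for Tdpoz3. Of 43 tested genes starting within 1 Mb of the pair, 5 were lower and 0 higher, against 3.84% and 2.46% of all tested genes. Beside these 2, the lower ones were Spopfm1 (49.4 and 47.8 against 22.1 and 18.3 CPM, log2 fold change -1.26), Gm9113 (-1.25) and Gm5543 (-1.304). The window also holds Tdpoz genes of the 2C list, a list in which 27 of 78 genes were lower. Of the 43, 20 averaged under 0.5 CPM in ESCs and at least 1 CPM in Dux OE, and 8 of these carry a Tdpoz or Spopfm symbol. All 20 had negative fold changes, with a median of -0.91, against -0.82 over the 78 tested 2C genes. Because they were picked by their level in Dux OE, which the change is taken against, their direction is a description and no test. Tdpoz8, one of the 20, had 20.3 and 21.9 against 13.4 and 10.5 CPM (-0.82 (SE 0.25, adjusted p = 0.0204)), below the size required. The 9 neighbours that ESCs already expressed at 1 CPM or more had a median of -0.060, and none was called. Cgn, encoding the tight junction protein cingulin, had 56.3 and 54.6 CPM in Dux OE and 54.7 and 51.6 CPM in the knockout (-0.06), and the annexin partner S100a10 had 46.1 and 47.3 and 55.2 and 53.01 CPM (0.21). Members of this cluster are close copies, so counts could be split among them by the authors' counting.

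RNA counted on the annotated Dux gene was lower in the knockout. Duxf3, the annotated Dux gene, had 4.01 and 3.24 CPM in Dux OE and 1.46 and 1.28 CPM in SE KO Dux OE, with 0.187 and 0 CPM in ESCs, a log2 fold change of -1.396 (SE 0.37, adjusted p = 0.00679). Without Dux OE replicate 1 the change was -1.22 (adjusted p = 0.0795) and was no longer called. Whether the transgene's reads fall on this gene is not given in the sources used here. The level of the inducer itself is therefore not known, and the part of a lower Duxf3 level in the changes below was not tested. Zscan4c, a telomere and 2C factor, had 811 and 810.3 CPM in Dux OE and 388 and 343 CPM in the knockout (-1.15 (SE 0.09, adjusted p = 7.81e-10)), still far above the 5.73 and 6.13 CPM of ESCs. The retrotransposed zinc finger gene Zfp352 had 83.4 and 84.1 and 42.6 and 35.9 CPM (-1.09), and without SE KO Dux OE replicate 2 its change was -0.95, under the size required. The homeobox gene Obox3 had 2.19 and 2.43 and 0.717 and 1.57 CPM, which was not called (log2 fold change -1.02 (SE 0.58, adjusted p = 0.219)). Among 16 listed regulators of Dux, Nelfa, a subunit of the negative elongation factor that promotes the 2C state, had 483 and 478 CPM in Dux OE and 229.8 and 224 CPM in the knockout, against 104 and 103 CPM in ESCs (-1.08 (SE 0.084, adjusted p = 7.81e-10)). With the GC offset described below its change was -0.96, under the size required. Dppa2 and Dppa4, activators of Dux, had log2 fold changes of 0.26 and 0.22, and the repressor Trim28 of -0.31.

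Transcripts of a tandem repeat, induced in Dux OE, were much lower in the knockout. Gm10800, at chr2:98666547-98667301, had 295 and 310.2 CPM in Dux OE, 67.4 and 47.5 CPM in SE KO Dux OE and 1.25 and 1.5997 CPM in ESCs, a log2 fold change of -2.39 (SE 0.201, adjusted p = 2.75e-09). The knockout libraries thus sat well below Dux OE and well above ESCs, with no overlap. Gm10800 shares at least 20% of its 25-base words with 7 other tested genes, and all 8 share the following run, printed because it is what joins them.
Gm10800 shared word: TGTTTCTCATTTTCCATGATTTTCA
As background, this is part of the mouse major satellite, the repeat that fills the heterochromatin around centromeres. The family, assembled after the values were seen and so given with no test, lies at chromosome 2 (Gm10800 and Gm10801), at the start of the assembled chromosome 9 (Gm10717, Gm10718, Gm10719, Gm10722 and Gm11168) and on chromosome 14 (Gm21738). All 8 were called lower, with a median log2 fold change of -2.58, and their summed level was 351 and 375 CPM in Dux OE, 77.2 and 55.1 CPM in the knockout and 1.74 and 2.07 CPM in ESCs. Gm21738, at chr14:19415857-19418930, had 26.2 and 29.8 CPM in Dux OE and 4.06 and 3.34 CPM in the knockout, by -2.92 (SE 0.22, adjusted p = 6.23e-10). The weakest member, Gm10719, had 0.875 and 2.43 and 0.584 and 0.0982 CPM (-2.22). Reads of such near-identical copies can be assigned to any of them, so the summed level is firmer than that of a single gene, and between 5 and 8 of the members were called across the alternatives run.

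A larger group of lowered, mostly noncoding genes shared a different word. Among tested genes with a transcript sequence, 108 held the 25-base run capitalised below, and 54 of these were lower and 0 higher (50% lower, against 3.74% of all such genes). Outside the 2C list it was 50 of 104. The run is shown with 15 bases on each side from Gm28940, an antisense transcript at chr1:82392493-82402746, because it is the feature these genes have in common.
Gm28940 with flanks: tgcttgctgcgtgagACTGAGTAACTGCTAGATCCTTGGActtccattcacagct
The same bases with the same flanks stand in the lincRNAs Gm48492, Gm48799 and Gm48829, all on chromosome 13. The run was found on the transcript strand in 100 of the carriers and on the opposite strand in 9. The group was picked by a search over words of the lowered genes, so its share is a description, and no repeat annotation was used to name the element. Gm28940 had 69.6 and 73.7 CPM in Dux OE, 36.9 and 24.4 CPM in SE KO Dux OE and 0.0623 and 0.267 CPM in ESCs (-1.22 (SE 0.19, adjusted p = 2.81e-05)). The 2 knockout libraries differed from each other here, and without SE KO Dux OE replicate 2 the change was -0.94, under the size required. Gm48829 had 28.7 and 26.5 against 12.5 and 9.91 CPM (-1.297) and AU019990 23.99 and 26.5 against 10.2 and 9.23 CPM (-1.38). Of the 15 protein-coding carriers under 1 CPM in ESCs and at 1 CPM or more in Dux OE, 8 were called lower, and the 15 had a median of -1.32. They were picked by their level in Dux OE, which the change is taken against, so this share too is a description and no test. Popdc3, encoding a Popeye domain membrane protein, had 25.9 and 27.04 CPM and fell to 10.3 and 8.25 CPM (-1.51 (SE 0.23, adjusted p = 3.01e-05)), and Ankrd22 18.01 and 15.5 CPM and 7.99 and 5.399 CPM (-1.32). Ccser1, with 47.5 and 46.8 and 46.2 and 36.2 CPM (-0.19, adjusted p = 0.349), and Tmem72, with 25.5 and 26.5 and 14.9 and 13.5 CPM (-0.87), were not called. Of the 25 carriers at 1 CPM or more in ESCs, 3 were called lower (Gm4340, Gm21761 and Gm41409), and the 25 had a median of -0.24. Of the other 83 carriers 51 were called, with a median of -1.28. The spliceosomal helicase gene Aqr changed by -0.58, the chromatin factor gene Atf7ip by -0.601 and the splicing factor gene Rbm25 by 0.41. Over all carriers the median level was 0.145 CPM in ESCs, 10.1 CPM in Dux OE and 4.56 CPM in the knockout. When only protein-coding genes free of exon overlap were kept, 10 carriers were called lower.

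**Figure D2:**
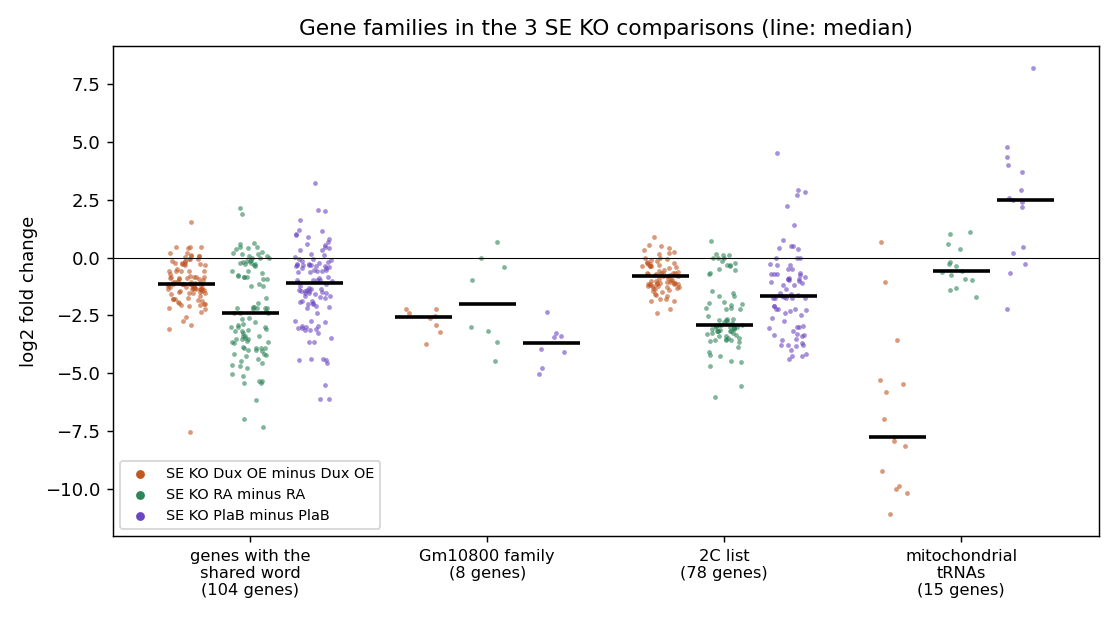
Log2 fold changes of the members of 4 gene groups (carriers of the shared word outside the 2C list, the Gm10800 family, the 2C list and the mitochondrial tRNAs) made by the deletion under Dux OE, RA and PlaB. Each point is a gene and each line the group's median; the Gm10800 family lies below 0 throughout under Dux OE while most mitochondrial tRNAs are far below 0 only there.

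Other genes that were near 0 in ESCs and reduced in the knockout encode proteins of many kinds. Eif4a3l1 and Eif4a3l2, retrocopies of the exon junction helicase gene Eif4a3, were both lower. Eif4a3l1 had 472 and 476 CPM in Dux OE, 161 and 160.1 CPM in SE KO Dux OE and 2.55 and 2.399 CPM in ESCs (-1.56 (SE 0.12, adjusted p = 7.81e-10)). Eif4a3l2 had 248 and 258 CPM and 101 and 101 CPM (-1.33). Both knockout libraries kept them far above the ESC level. AF067061, at chr13:120263114-120264517, fell from 152 and 138 to 65.9 and 52.2 CPM (-1.296). Of immune-type genes, Slfn2, a schlafen family gene of T-cell quiescence, had 17.9 and 18.5 CPM in Dux OE and 6.796 and 4.19 CPM in the knockout (-1.72 (SE 0.24, adjusted p = 1.61e-05)), and the nuclear body gene Sp140 had 18.2 and 18.5 and 8.34 and 5.69 CPM (-1.38). Klrb1, a lectin-type receptor gene of natural killer cells, had 12.5 and 13.04 and 4.301 and 2.88 CPM (-1.83). The dopamine receptor gene Drd3 had 7.801 and 8.72 CPM and 1.83 and 1.34 CPM (-2.37 (SE 0.397, adjusted p = 0.000126)), and the testis bHLH-zip factor gene Spz1 had 14.7 and 15.9 and 6.72 and 4.09 CPM (-1.49). Lmx1a, a LIM homeobox gene of dopaminergic and roof plate progenitors, had 35.1 and 48.5 CPM in Dux OE and 17.97 and 19.2 CPM in the knockout (-1.17), but the higher value was that of Dux OE replicate 2, without which the change was -0.89. Among 48 tested olfactory receptor genes and pseudogenes, 13 were lower and 1 higher, against 3.84% lower and 2.46% higher of all tested genes. Their median was -1.14, and 37 were at or under the floor in ESCs. The family was picked after the values were seen, and those 37 entered the test through other groups, which can include Dux OE. These counts are therefore a description and no test. Olfr699 had 8.24 and 9.26 and 2.79 and 1.96 CPM (-1.87 (SE 0.303, adjusted p = 9.88e-05)) and Olfr374 21.1 and 21.9 and 9.85 and 7.198 CPM (-1.33).

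A second set of lowered genes was already expressed in ESCs. Outside the 2C list 260 of the lowered genes averaged at least 1 CPM in ESCs, with a median of -1.31, and this count also holds genes that Dux OE raised from a low level, such as Eif4a3l1 and Gm10800. Lncenc1, a long noncoding RNA abundant in ESCs, had 274 and 258 CPM in Dux OE and 229.7 and 229 CPM in ESCs, but 53.3 and 48.2 CPM in SE KO Dux OE (-2.39 (SE 0.104, adjusted p = 8.74e-15)). Upp1, encoding uridine phosphorylase, had 305 and 303 CPM in Dux OE, 100.2 and 125 CPM in the knockout and 325 and 337 CPM in ESCs (-1.43 (SE 0.12, adjusted p = 1.5e-09)). Dnmt3l, the catalytically inactive partner of the de novo DNA methyltransferases, had 101 and 104 CPM in Dux OE and 38.1 and 44.3 CPM in the knockout (-1.32 (SE 0.14, adjusted p = 1.36e-07)). It was the one called member of 15 tested DNA methylation genes, and Dnmt3a, Dnmt3b and Dnmt1 had -0.26, -0.41 and -0.26. Sohlh2, a bHLH factor gene of spermatogonia and oocytes outside the fixed lists, had 96.5 and 89.7 and 34.4 and 36.6 CPM (-1.39), and Khdc3, a subunit of the oocyte subcortical maternal complex, 36.5 and 35.7 and 14.97 and 14.4 CPM (-1.297). Khdc3 was the one called gene of 10 oocyte and maternal genes, of which 5 had positive and 5 negative fold changes, and of 21 germline genes 1 was higher (Brdt, 1.403) and 1 lower (Tuba3a, -1.15). In these 5 genes (Lncenc1, Upp1, Dnmt3l, Sohlh2 and Khdc3) both knockout libraries lay below Dux OE and below ESCs, unlike in Tdpoz3, Gm10800 or Eif4a3l1.

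The mitophagy gene Bnip3 and the complex I regulator gene Ndufa4l2 were also lower. Bnip3, a mitophagy receptor gene induced by HIF, had 24.6 and 26.8 CPM in Dux OE and 6.03 and 6.54 CPM in SE KO Dux OE, against 32.1 and 34.9 CPM in ESCs (-2.03 (SE 0.15, adjusted p = 1.85e-10)). Ndufa4l2, another HIF target that restrains respiratory complex I, had 5.83 and 7.71 and 0.7699 and 0.949 CPM (-2.99 (SE 0.43, adjusted p = 1.36e-05)). Chchd10, encoding a protein of the mitochondrial intermembrane space, fell from 146 and 156 to 51.03 and 62.9 CPM (-1.41), and Lars2, encoding mitochondrial leucyl-tRNA synthetase, from 415 and 393 to 128 and 145 CPM (-1.56). Of 20 listed hypoxia genes 2 were lower, Bnip3 and Ndrg1 (-1.43), 0 were higher, and the median was -0.18, against -0.019 for all tested genes. None of 18 glycolysis genes was called. By the adjusted p alone 13 of them were lower and 0 higher, against 14% and 11.5% of all genes, with a median of -0.47. The median of these 18 genes was 0.56 under RA and -0.27 under PlaB. Pfkl, the liver-type phosphofructokinase gene, had 349.8 and 356 CPM in Dux OE and 181 and 219 CPM in the knockout (-0.82 (SE 0.13, adjusted p = 3.29e-05)). Of 23 genes of the integrated stress response, 14 passed the adjusted p alone in the lower and 2 in the higher direction. Of these 1 was called lower, Trib3, a pseudokinase gene induced by ATF4, from 39.7 and 38.7 to 16.7 and 16.2 CPM (-1.25), and 1 higher, Slc7a11, the cystine-glutamate exchanger gene, from 1.09 and 0.811 to 5.97 and 8.21 CPM (2.89 (SE 0.300, adjusted p = 1.02e-07)). Txnip, encoding an inhibitor of thioredoxin, had 205 and 210.3 and 85.99 and 94.95 CPM (-1.198).

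**Figure D3:**
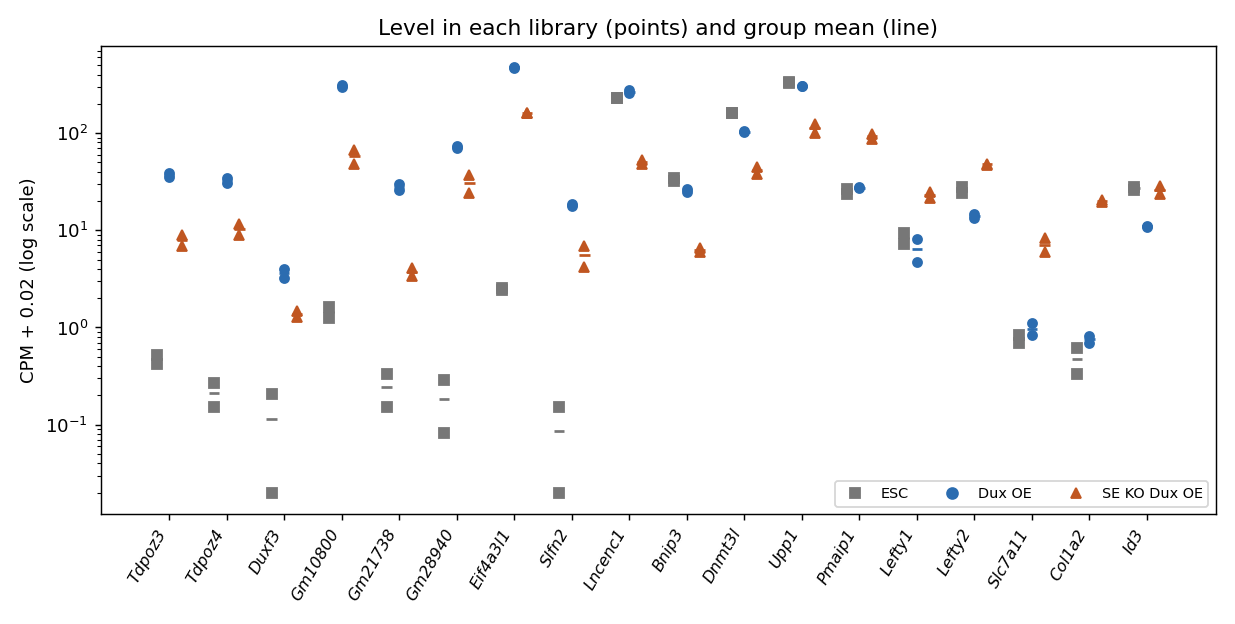
Level of 18 named genes in every library of ESC, Dux OE and SE KO Dux OE, in CPM plus 0.02 on a log scale, with 1 point per library (2 per group) and a line at the group mean. The repeat-derived and DUX-induced genes lie between ESC and Dux OE in the knockout, whereas Lncenc1, Bnip3 and Dnmt3l lie below both.

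Among raised genes that ESCs express were antagonists of Nodal and a pro-apoptotic gene. Lefty1 and Lefty2, secreted antagonists of Nodal, were the 2 members called higher among 17 tested genes of the Nodal pathway, and none was lower. Lefty2 had 13.5 and 14.8 CPM in Dux OE, 47.3 and 48.1 CPM in SE KO Dux OE and 23.98 and 28.1 CPM in ESCs (1.75 (SE 0.15, adjusted p = 3.05e-09)), and Lefty1 had 4.67 and 8.04 and 21.6 and 24.9 CPM (1.86 (SE 0.17, adjusted p = 7.47e-09)). Nodal itself had 64.2 and 69.5 and 76.8 and 84.4 CPM (0.27, adjusted p = 0.0696), and its coligand gene Gdf3 51.8 and 57.6 and 49.2 and 55.8 CPM (-0.06). The knockout thus stood above ESCs as well as above Dux OE for the antagonists. Pmaip1, which encodes the pro-apoptotic BH3 protein Noxa, had 27.998 and 26.9 CPM in Dux OE and 97.4 and 87.6 CPM in the knockout, against 26.7 and 23.4 CPM in ESCs (1.75 (SE 0.102, adjusted p = 3.42e-12)). It was the one raised gene of 22 p53 targets, of which Ddit4l was lower (65.3 and 64.7 and 31.4 and 29.4 CPM, -1.096), and the list's median was -0.10. Casp8, the initiator caspase gene of death receptors, had 3.57 and 3.92 and 9.19 and 10.2 CPM (1.37), and it was the one called gene of 20 apoptosis regulators.

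Other raised genes were single members of their lists or belonged to none. Of 13 BMP and Id target genes Id3 alone was called, and of 17 FGF-ERK targets Egr1 alone, with list medians of 0.35 and -0.049. Id3, an HLH inhibitor induced by BMP, had 10.9 and 11.2 CPM in Dux OE and 23.6 and 28.8 CPM in the knockout (1.25 (SE 0.13, adjusted p = 1.05e-07)), back at the ESC level of 28.2 and 25.9 CPM. Egr1, an immediate early gene of ERK signalling, had 3.79 and 4.73 and 8.73 and 12.01 CPM (1.27), also near the 8.72 and 8.73 CPM of ESCs. Foxd3, a forkhead factor gene of pluripotent cells and neural crest, had 3.21 and 2.23 CPM and 5.495 and 7.26 CPM (1.23), far under its ESC level of 27.03 and 24.9 CPM. Jam2, a junctional adhesion molecule gene, had 109 and 113 CPM in Dux OE and 286 and 272 CPM in the knockout (1.33 (SE 0.091, adjusted p = 7.84e-11)). Anxa1, encoding annexin A1, had 7.66 and 7.23 and 25.8 and 24.8 CPM (1.76), and Tob1, an antiproliferative adaptor of the CCR4-NOT deadenylase, 56.7 and 58.9 and 124 and 128 CPM (1.12). Of 14 genes of lipid transport 4 were higher and 0 lower, with a list median of 0.26. They were Abca1, the cholesterol exporter gene (11.2 and 10.7 and 26.3 and 25.6 CPM, 1.24 (SE 0.11, adjusted p = 5.43e-09)), Apob (1.31 and 0.676 and 3.42 and 5.27 CPM, 2.13), Apoa1 (0.146 and 0.0676 and 1.86 and 3.27 CPM) and the lipoprotein lipase gene Lpl (1.002). Lpl lay at the threshold, and without Dux OE replicate 1 its change was 0.89 and without SE KO Dux OE replicate 2 0.97. The lipoprotein genes are also markers of primitive endoderm and gut, and of 19 primitive endoderm genes 3 were higher (Pdgfra, Dab2 and Fst) and 1 lower (Cubn), with a list median of 0.061. Dab2, an endocytic adaptor gene, had 3.65 and 2.84 and 9.72 and 7.07 CPM (1.38). Without Dux OE replicate 2, Fst had an adjusted p of 0.0716 and Cubn of 0.235, and without SE KO Dux OE replicate 1 Cubn had one of 0.0597.

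Some collagen and matrix genes of low level were raised. Col1a2, a chain of type I collagen, had 0.802 and 0.676 CPM in Dux OE, 19.5 and 20.4 CPM in SE KO Dux OE and 0.311 and 0.5999 CPM in ESCs (4.74 (SE 0.31, adjusted p = 2.82e-11)). Its partner Col1a1 had 3.35 and 3.04 and 13.8 and 12.1 CPM (2.02 (SE 0.22, adjusted p = 2.45e-07)), and the fibril-associated Col12a1 0.656 and 0.946 and 9.56 and 10.01 CPM (3.59). Col5a2 had 1.24 and 2.298 and 6.85 and 8.34 CPM (2.08), and the proteoglycan biglycan gene Bgn 0.219 and 0.2704 and 4.35 and 4.81 CPM (4.18). Of 23 collagen and basement membrane genes 4 were called higher and 0 lower, with a median of 0.061. By the adjusted p alone 6 of the 23 were higher and 5 lower. Col4a1, a basement membrane collagen gene, had 84.2 and 88.003 and 121 and 128 CPM (0.54). The list of fibroblast markers holds Col1a1 and Col1a2 too, so it is not independent of the raised collagens. Of 14 tested fibroblast markers 6 were higher (Col3a1, Postn, Col1a2, Col6a1, Col1a1 and Acta2) and 0 lower, against 2.46% and 3.84% of all tested genes. Postn and the untested Lum, Dcn and S100a4 were at 0 in both Dux OE libraries. In the knockout Postn was at 11.6 and 14.1 CPM, while Dcn had 6 and 8 counts, Lum 2 and 4 and S100a4 0 in both. The list's summed level nevertheless lay between 2564 and 2614 CPM in the knockout and between 3595 and 3713 CPM in Dux OE, and Fn1, which ESCs express, had 3318 and 3441 and 2276 and 2304 CPM (-0.56). The part of other cell types in the rise of the raised collagens was not tested. Acta2, smooth muscle actin, had 0.146 and 0 CPM in Dux OE and 4.73 and 5.33 CPM in the knockout (adjusted p = 6.28e-06), and Gulp1, an engulfment adaptor gene, 2.48 and 1.62 and 9.48 and 7.36 CPM (2.05).

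Genes of the ESC identity and naive pluripotency lists were not called in either direction. Among 12 ESC identity markers and 17 naive pluripotency genes 0 were called lower and 0 higher, although 6 markers passed the adjusted p alone in the higher and 3 in the lower direction. Nanog had 509 and 502 CPM in Dux OE and 839 and 777 CPM in SE KO Dux OE, against 664 and 677 CPM in ESCs (0.68 (SE 0.072, adjusted p = 1.63e-07)). Zfp42, the Rex1 gene, had 617 and 628 and 879 and 897 CPM (0.51). Pou5f1, encoding OCT4, lay the other way, with 505 and 530.1 and 351 and 393 CPM (-0.48), as did Sall4 (-0.55) and Utf1 (-0.89). Sox2 had 369 and 393 and 416 and 421 CPM (0.14, adjusted p = 0.384). Of 16 genes of formative and primed pluripotency 2 were higher (Foxd3 and Cdh2) and 1 lower (Dnmt3l), with a median of -0.14. Fixed lists without a called gene also included 19 trophectoderm genes (median 0.018), 22 genes of the Wnt pathway (-0.19), 24 nuclear-encoded respiratory chain genes (-0.050), 25 cytosolic ribosomal protein genes (-0.032), 24 chromatin modifiers (-0.076) and 18 splicing factors (0.22). Of 24 tested zinc finger genes of the Zfp600 to Zfp980 range, many of the KRAB repressor kind, all 24 had positive fold changes, with a median of 0.62. Their median was -0.89 under RA and 0.43 under PlaB. In that list 11 passed the adjusted p alone and 2 were called, of which the X-linked Zfp711 had 0.583 and 1.01 and 3.85 and 3.37 CPM (2.16 (SE 0.34, adjusted p = 3.97e-05)). The other, Zfp947, lost its call in 10 of 14 alternatives, among them RLE and library-size scaling, thinned knockout counts and the GC offset. Its log2 fold change ranged from 0.75 to 1.24 across them. In single lineage lists the calls were few and in both directions: 16 neural genes gave 1 higher (Nefl) and 1 lower (Sox1), and without Dux OE replicate 1 or SE KO Dux OE replicate 1 Sox1 had an adjusted p of 0.118 or 0.0758.

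**Figure D4:**
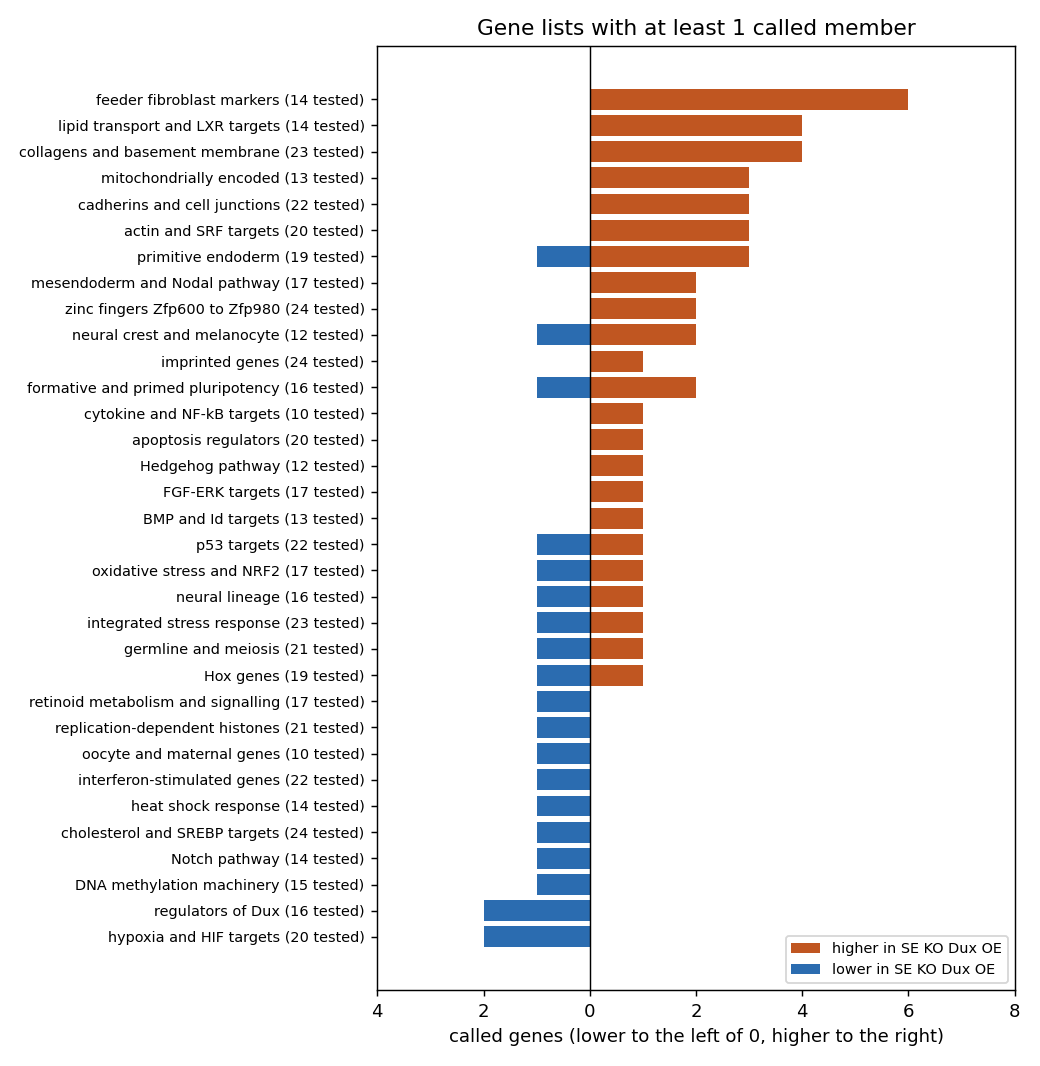
Number of genes called higher (bars to the right of 0) and lower (bars to the left) in SE KO Dux OE against Dux OE, for each gene list with at least 1 call and with the number tested beside its name. Fibroblast markers, collagens and lipid transport genes were called higher only, and hypoxia genes lower only.

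Most mitochondrial tRNAs were lower, but the protein transcripts of that genome were not called lower. Of 15 tested mitochondrial tRNAs 13 were lower and 0 higher, with a median log2 fold change of -7.77, because most were at 0 in both knockout libraries in spite of their depth. mt-Th, the histidine tRNA at chrM:11546-11612, had 16.6 and 11.1 CPM in Dux OE, 13.8 and 10.8 CPM in ESCs and 0 in both knockout libraries, at least 156-fold lower against the floor of 3 counts per library (adjusted p = 1.67e-12). The same held for mt-Tl2, a leucine tRNA with 7.58 and 7.503 CPM in Dux OE (at least 84.8-fold), mt-Ts2, a serine tRNA with 6.93 and 6.29 CPM (at least 74.3-fold), and mt-Tc, the cysteine tRNA with 5.91 and 6.02 CPM (at least 67.05-fold). Their sequences are shown with the anticodon in capitals, since all are very short features, of 59 to 71 bases.
mt-Th: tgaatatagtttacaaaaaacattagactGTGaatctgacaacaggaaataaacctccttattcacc
mt-Tl2: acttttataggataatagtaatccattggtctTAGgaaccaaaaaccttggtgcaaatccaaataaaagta
mt-Ts2: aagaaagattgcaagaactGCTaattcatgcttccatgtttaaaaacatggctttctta
mt-Tc: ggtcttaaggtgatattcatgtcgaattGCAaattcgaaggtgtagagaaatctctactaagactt
The proline tRNA mt-Tp was an exception in size, with 26.6 and 25.7 CPM in Dux OE and 12.3 and 12.99 CPM in the knockout (-1.05 (SE 0.18, adjusted p = 0.000128)). The large ribosomal RNA mt-Rnr2 went up, from 376 and 374 to 1126 and 1302 CPM (1.695 (SE 0.099, adjusted p = 3.42e-12)). Of 13 mitochondrial protein genes 8 had positive and 5 negative fold changes, 4 passed the adjusted p alone in the higher and 3 in the lower direction, and 3 were called, all higher. These were mt-Nd3 from 5.61 and 4.73 to 19.3 and 25.98 CPM (2.13), mt-Atp6 from 21.4 and 22.6 to 73.9 and 65.1 CPM (1.66) and mt-Co3 from 39.5 and 18.3 to 82.8 and 73.2 CPM (1.44). The 2 Dux OE libraries differed for mt-Co3, whose change was 2.10 without Dux OE replicate 1. mt-Co1 had 12279.8 and 11512 CPM in Dux OE and 11127 and 12913 CPM in the knockout (0.015), and mt-Nd1 0.16. Of 293 tested nuclear genes of at most 200 exonic bases 9.9% were lower and 2.73% higher, with a median of -0.25, against 1.21% lower and a median of 0.013 in the longest class. Of 107 tested small nucleolar RNA genes 7 were higher and 3 lower, with a median of 0, and Snora17, with 21.7 and 29.9 and 3.11 and 3.83 CPM (-2.900 (SE 0.27, adjusted p = 1.91e-08)), was the one lower gene of 37 with a Snora or Snord symbol. The libraries were poly(A)-selected, and whether fragment lengths differed between the groups was not tested.

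A few genes had almost no counts in the knockout libraries alone. Snrpf, encoding the SmF core protein of spliceosomal snRNPs, had 43.4 and 44.7 CPM in Dux OE and 0.106 and 0.164 CPM in SE KO Dux OE (-8.31 (SE 0.201, adjusted p = 5.86e-21)), from 4 and 5 counts, while the other 24 libraries had 532 to 957 counts. Slirp, a stabiliser of mitochondrial mRNA, had 5.104 and 4.06 and 0.212 and 0.0982 CPM (-4.77 (SE 0.401, adjusted p = 2.8e-09)), from 8 and 3 counts against 43 to 504 elsewhere. Gm49909, at chr17:70974119-71002208, had 3.14 and 5.75 CPM in Dux OE and 0 in both knockout libraries, at least 49.9-fold lower. The same deletion left Snrpf at log2 fold changes of -0.15 under RA and -0.16 under PlaB. Neither Snrpf nor Slirp was among the genes kept in the alternative of protein-coding genes without exon overlap. The part of read counting in their low values was not tested. On the other side, Reg3b, an antibacterial lectin gene of the gut, was at 0 in both Dux OE libraries and at 5.15 and 8.21 CPM in the knockout (at least 31.7-fold higher, adjusted p = 4e-06), and the Paneth cell lysozyme gene Lyz1 at 0 and at 4.73 and 7.1003 CPM (at least 28.1-fold). Of 8 tested alpha-defensin genes, a family picked after the values were seen, 6 were higher, against 2.46% of all tested genes. Defa20, Defa21 and Defa24 were at 0 in the other 24 libraries. They entered the test through the knockout libraries alone, so their direction is a description and no test. In all, 160 of the 515 raised genes were at or under the floor in Dux OE, against 2394 of the 20875 tested genes outside the 2C list. Under the same count rule, PlaB libraries had 55 genes of their own and lacked 41, DMSO and SE KO RA each lacked 1, and the other 9 groups had 0 of either kind.

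Chromosome, base composition and gene overlap went along with the differences. Genes of the X chromosome leaned upward, with 44 higher (6.06%) and 12 lower (1.65%) of 726 and a median log2 fold change of 0.24, against 2.46% higher and 3.84% lower of all tested genes. The medians of chromosomes 2 and 3 were both -0.15, with 24 higher and 70 lower (4.51%) of 1553 genes on chromosome 2 and 23 higher and 58 lower (5.61%) of 1034 on chromosome 3, which holds the deleted element. The lowered share was larger on chromosomes 13 (6.49%) and 10 (5.82%), whose medians were 0.065 and -0.0012. Smarca1, an X-linked ISWI remodeler gene, had 11.4 and 9.19 and 35.2 and 27.5 CPM (1.61 (SE 0.23, adjusted p = 1.41e-05)), and the X-linked deubiquitinase gene Usp26 9.55 and 10.1 and 30.4 and 25.8 CPM (1.52). Over protein-coding genes the median fell from 0.30 in the quintile of lowest GC content (30.965 to 43.977%) through 0.081, -0.024 and -0.13 to -0.21 in the quintile of highest GC content. The lowest quintile held 138 higher and 56 lower genes and the highest 39 higher and 105 lower. Across genes, which are not independent replicates, GC content had a Spearman correlation of -0.35 with the log2 fold change under Dux OE, of 0.24 under RA and of 0.058 under PlaB. With an offset for GC content, chosen after seeing the data, 450 genes were higher and 783 lower, and 395 of the 515 raised and 660 of the 777 lowered genes kept their call. Among genes with more than 25% of exonic bases shared with another gene, 85 of 1089 were lower (7.81%) and 9 higher, and reads of overlapping genes may be split or lost by counting.

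**Figure D5:**
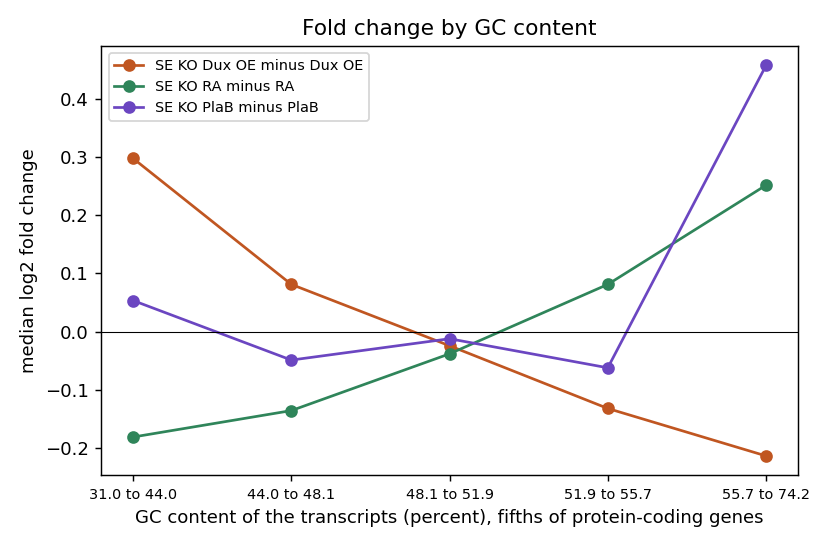
Median log2 fold change (y axis) made by the deletion under Dux OE, RA and PlaB for protein-coding genes in quintiles of transcript GC content (x axis, percent). Under Dux OE the median goes from 0.30 in the lowest to -0.21 in the highest quintile, and under RA from -0.18 to 0.25.

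The same deletion was then compared across inductions, using contrasts that share no library. Of the 777 genes lowered under Dux OE outside the 2C list, 232 (29.9%) were also lower in SE KO RA against RA, where 10.8% of all tested genes outside the list were lower, and 388 (49.9%) in SE KO PlaB against PlaB, where 26.01% were. Over all tested genes the calls were 6.57% higher and 11% lower under RA and 25.9% and 26.1% under PlaB. They are 10.3% and 7.15% of the genes lowered in those contrasts. Of the 515 raised genes, 39 (7.57%) were higher and 143 (27.8%) lower under RA, and 162 (31.5%) were higher and 82 (15.9%) lower under PlaB. The median of the raised genes was -0.39 under RA and of 0.33 under PlaB, and the lowered genes of -0.55 and -1.25. SE KO RA replicate 1 carries a wild-type genotype label against its title, and was kept by its title. Lowered in all 3 contrasts were 140 genes outside the 2C list, among them Eif4a3l1 (-2.82 under RA and -1.86 under PlaB), Slfn2 (-3.804 and -2.96), Popdc3 (-1.95 and -1.88), Olfr699 (-5.18 and -5.19) and Sp140 (-1.94 and -1.63). The Gm10800 family had medians of -1.996 under RA and -3.70 under PlaB, and carriers of the shared word outside the 2C list of -2.38 and -1.10. Only 11 genes were raised in all 3, including the homeobox gene Prrx2 and the POU factor gene Pou4f2, which had 3.72 and 5.68 CPM in Dux OE and 10.8 and 12.4 CPM in SE KO Dux OE and log2 fold changes of 1.29, 1.82 and 3.24 under Dux OE, RA and PlaB.

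Direction under the other inducers varied among genes that ESCs express. Of the 260 lowered genes outside the 2C list at 1 CPM or more in ESCs, 101 had a negative fold change under RA and 150 under PlaB, and of 218 such raised genes 65 had a positive one under RA and 154 under PlaB. Dnmt3l had log2 fold changes of 1.08 under RA and 1.36 under PlaB, Txnip of 2.26 and 2.06, Bnip3 of 0.63 and -2.11, and Lncenc1 of -3.22 and 1.42. Lefty1 was lower in both (-1.38 and -2.89), as was Lefty2 (-0.702 and -1.804), and Anxa1 was at -3.04 under RA and 0.39 under PlaB. By a test of the difference itself, 182 of the 515 raised genes had a more positive effect under Dux OE than under both RA and PlaB. Of the 777 lowered genes, 129 had a more negative one. These genes were picked by their effect under Dux OE, which enters the difference, so both counts are a description and no test. Over all tested genes, 4366 differed between Dux OE and RA (12.1% with a positive and 8.75% with a negative difference) and 9452 between Dux OE and PlaB (20.6% and 24.5%).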

How the data were processed

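RNA-seq libraries of R1 mouse ESCs were made by the authors with poly(A) selection (NEBNext Ultra II). The submitters' processing notes name FastQC, Trimmomatic, STAR, featureCounts and DESeq2 with build mm10, and their versions, strand setting and treatment of multi-mapped reads are not given in the sources used here. The values are raw counts per gene as deposited by the authors, 55291 genes in 26 libraries of 13 groups, 2 libraries each. Groups were taken from the sample titles.

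From these counts, 1 model of all 26 libraries was fitted with edgeR 4.0.16 in R 4.3.3 (TMM normalization, genes kept by filterByExpr, quasi-likelihood F-test), and 20953 genes were tested. A gene was called at a Benjamini-Hochberg adjusted p under 0.05 over all of them and a change of at least 2-fold in either direction. Fold changes used a prior count of 0.125, a standard error is the absolute log2 fold change divided by the square root of F, and values in text are CPM on TMM-scaled library sizes, compared between libraries and not between genes. The floor was 3 counts. Floors cover counting error only, while standard errors include the spread between libraries. Differences between inductions were contrasts of the same model. The script was checked on simulated data. Gene positions, types, GC content, exon overlap and transcript sequences came from GENCODE M21 (mm10), tRNA sequences included.

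The gene lists (53) and the rule for named genes were chosen with earlier results of these data known. The repeat families, and families by symbol such as olfactory receptors and alpha-defensins, were chosen after the values were seen. The rule named readouts of Dux, of the Tdpoz locus and of genes that the study singles out, the 12 genes with the largest rise and fall of at least 5 CPM without clone names and without overlap, up to 4 called genes per list, genes called alike in all 3 inductions or differing most between them, and neighbours within 1 Mb. Other named genes (AF067061, Ccser1, Tmem72, Slfn2 and further DUX-induced genes, Upp1, Chchd10, Lars2, Sohlh2, Jam2, Tob1, Anxa1, Bgn, Smarca1, Usp26 and list members that were not called) were chosen after their values were seen.

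The replicate numbers did not pair the samples: same-numbered libraries deviated from their group means with a correlation of -0.017. Replicates differed beyond counting noise (chi-square per degree of freedom 2.05 in Dux OE and 9.81 in SE KO Dux OE). Alternatives were RLE and library-size scaling, other filters, DESeq2 1.42.0, only the 4 libraries, thinned knockout counts, a replicate block, each library left out, the adjusted p alone, a GC offset and protein-coding genes without exon overlap.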

Additional observations from a re-analysis of the deposited data

Results flagged for a closer look

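Of 156 genes named by rule, 47 had an effect of the deletion under Dux OE that differed from those under both RA and PlaB, by a test of the difference itself in the edgeR model. Many of the 156 were named by these same values, and some by this difference, so the count of 47 is a description and no test. The adjusted p-values below likewise belong to genes picked by the size of the difference. The 8 given here were named because their smaller difference was the largest, 4 in each direction. The differences are log2 fold changes under Dux OE minus those under RA, then minus those under PlaB, and since these genes were at 0 in both libraries of a group, their sizes depend on the prior count and are no bounds.

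The intestinal genes had positive differences. Clec2h, a lectin-type receptor gene, had differences of 12.13 (adjusted p = 0.000718) and 10.95 (6.62e-05), and the mucin gene Muc13 of 14.53 (1.27e-06) and 10.93 (7.57e-07). Pigr, the receptor that carries IgA across epithelia, had 12.12 (0.00238) and 10.80 (0.024), and the goblet cell gene Zg16 had 12.20 (1.36e-05) and 10.40 (0.000137). DESeq2, used as an alternative, gave no adjusted p for Clec2h, Pigr and Zg16 in SE KO Dux OE against Dux OE. Its results for the differences of single genes between inductions are not given here. Muc13 was at 0 in both Dux OE libraries and at 1.75 and 3.27 CPM in SE KO Dux OE.

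The mitochondrial tRNAs had negative ones. mt-Th had -11.66 (1.08e-12) and -19.25 (4.1e-18), mt-Tl2 -11.20 (2.63e-10) and -13.90 (4.42e-13), mt-Ts2 -10.36 (4.44e-12) and -14.00 (4.35e-16), and mt-Tc -9.23 (3.37e-11) and -14.19 (2.55e-17). All 4 were at 0 in both knockout libraries under Dux OE. The part of the library make-up in these differences was not tested.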

How the results depend on the processing

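With the adjusted p alone, 2406 genes were higher and 2925 lower (2405 and 2881 outside the 2C list). With only protein-coding genes free of exon overlap, 294 were higher and 235 lower (294 and 213 outside the list), by construction from fewer genes tested, and 55.6% of calls were higher against 39.0% before. With each library left out in turn, 342 to 514 genes were higher and 451 to 678 lower (342 to 514 and 425 to 649 outside the list), the lowest without Dux OE replicate 2, and the lone library left was assumed to vary like the other groups. With no filter beyond 1 count, 50.1% of calls were higher. The replicate block gave 499 higher and 775 lower genes, and the numbers do not pair the samples. DESeq2 called 367 higher and 621 lower, thinned knockout counts 459 and 718. Genes called alike under Dux OE and RA (294) ranged from 248 to 311, and in all 3 inductions (171) from 148 to 196. Of 116 called named genes, a count that leaves out Zfp947, none changed direction. With all libraries kept at most 11 lost their call, under DESeq2, and more did without Dux OE replicate 2. The lower depth of Dux OE limits what can be seen among raised genes near the floor. The cause of these moves was not tested.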
